A study of Mus musculus with 12 samples.

Results

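The lipid and sterol synthesis genes described here are 8 genes read by 10 probe sets: Srebf1, Insig1, Fads2, Elovl3, Agpat2, Mogat2, Hsd17b7 and Stard4. They were chosen by symbol, as the genes of that name in the authors' deposited lists of probe sets that differed between groups. Those lists name 2176 genes, and each array held 32176 probe sets. The lists are the sole source of gene names here, so a gene entered only because at least 1 of its probe sets had been selected in Apc against WT, ApcMyc against Apc or ApcMyc against WT. The members' calls in those comparisons are therefore not independent of how the genes came to be named. ApcMyc minus Myc and Myc minus WT share the ApcMyc or WT arrays with the lists, so calls there are not independent of it either.

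RNA from mouse liver was measured on 12 arrays in 4 groups of 3. All mice, controls included, were AhCre-positive and received beta-naphthoflavone, the agent that switches on this Cre recombinase, 3 times at 80 mg/kg in 1 day, and livers were taken on day 4. WT mice were the AhCre-positive wild-type controls, Apc mice carried homozygous floxed Apc, Myc mice homozygous floxed Myc, and ApcMyc mice both floxed pairs. AhCre acts only in cells where the inducer switches it on, and the share of recombined cells was not measured here. The labels used here give no age, sex, strain or hour of collection, and do not state that the arrays of a group came from separate animals. The p-values therefore weigh differences only against the variation among these arrays, part or all of which may be technical.

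Fat and sterol synthesis in liver are run by the SREBP transcription factors, which are made as membrane proteins of the endoplasmic reticulum. Srebf1 encodes the form that mainly switches on fatty acid and triglyceride genes, while its relative SREBP2 mainly serves the sterol genes. INSIG proteins hold the SREBPs in the membrane when sterols are plentiful, and Insig1 is itself an SREBP target. Among the enzymes, Fads2 desaturates polyunsaturated fatty acids, Elovl3 elongates saturated and monounsaturated ones, and Agpat2 and Mogat2 add fatty acids to the glycerol backbone by separate routes. Hsd17b7 acts late in cholesterol synthesis, and Stard4 carries sterol between membranes.

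RefSeq promoter windows (GRCm38.p6, 250 bases before to 50 after each start) were held for 5 of the 8 genes, 7 windows in all. The windows of the regulators Srebf1 and Insig1 and of the sterol enzyme Hsd17b7 are shown because these sterol-linked genes moved in opposite directions in the livers, and because they hold the motif matches found. Srebf1 window 1 is chr11:60222532-60222831 and window 3 is chr11:60210422-60210721, both on the minus strand. The Insig1 window is chr5:28071162-28071461 on the plus strand, and the Hsd17b7 window is chr1:169969156-169969455 on the minus strand. Capitals mark the CCAAT box, read as ATTGG where it lies on the other strand, and the E-box CACGTG.
Srebf1 window 1: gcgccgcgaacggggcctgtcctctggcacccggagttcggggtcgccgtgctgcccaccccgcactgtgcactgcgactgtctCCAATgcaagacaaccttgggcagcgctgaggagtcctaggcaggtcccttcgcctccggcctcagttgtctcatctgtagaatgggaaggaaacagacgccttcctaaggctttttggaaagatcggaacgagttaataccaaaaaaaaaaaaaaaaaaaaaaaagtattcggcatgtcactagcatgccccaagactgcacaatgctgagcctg
Srebf1 window 3: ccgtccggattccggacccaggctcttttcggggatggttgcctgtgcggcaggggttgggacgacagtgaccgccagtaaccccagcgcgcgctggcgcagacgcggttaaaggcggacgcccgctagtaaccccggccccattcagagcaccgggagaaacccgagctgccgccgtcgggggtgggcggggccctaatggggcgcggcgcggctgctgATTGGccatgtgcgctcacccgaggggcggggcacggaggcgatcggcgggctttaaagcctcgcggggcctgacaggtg
Insig1: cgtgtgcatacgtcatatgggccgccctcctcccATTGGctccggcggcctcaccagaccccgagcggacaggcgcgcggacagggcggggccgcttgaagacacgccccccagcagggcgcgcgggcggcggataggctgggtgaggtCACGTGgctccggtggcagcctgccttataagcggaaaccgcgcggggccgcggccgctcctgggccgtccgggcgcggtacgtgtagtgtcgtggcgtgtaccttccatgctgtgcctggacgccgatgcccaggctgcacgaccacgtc
Hsd17b7: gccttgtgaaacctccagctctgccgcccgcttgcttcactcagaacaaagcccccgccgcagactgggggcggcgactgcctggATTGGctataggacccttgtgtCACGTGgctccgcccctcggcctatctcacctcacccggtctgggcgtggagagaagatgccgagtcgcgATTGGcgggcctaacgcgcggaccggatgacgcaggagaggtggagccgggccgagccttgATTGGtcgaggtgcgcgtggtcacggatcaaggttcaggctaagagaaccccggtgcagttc

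The CCAAT box, searched as CCAAT on both strands, was found in 4 of the 7 windows, and 37.4% of all 32851 RefSeq promoter windows of this length hold it. The Hsd17b7 window holds 3 copies, which start at -165, -73 and -12 relative to the start. The E-box CACGTG, which reads the same on both strands and is the form that MYC binds, lies at -143 in Hsd17b7 and at -101 in Insig1. It is present in 2 of the 7 windows and in 7.15% of all. The sterol regulatory element searched as TCACNCCAC and the TCF motif searched as CTTTGA, both on both strands and neither able to lie within the other motifs, had no match in the 7 windows, against 1.24% and 16% of all windows. A match or its lack describes these letters only.

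Levels below are log2(normalized signal + 16), where the signal is the array's linear signal after quantile normalization, and a difference of 1 is a doubling for a gene well above 16. Levels are comparable between arrays for 1 probe set, not between probe sets. Differences were tested with limma over 32115 probe sets, and a change is a Benjamini-Hochberg adjusted p under 0.05. The targeted genes were read first. Myc stood at 8.80 ± 0.258 in Apc livers against 6.07 ± 0.678 in WT, and at 5.22 ± 0.299 and 5.45 ± 0.075 in Myc and ApcMyc livers (SD, n = 3). Myc minus WT was -0.85 for Myc itself (adjusted p = 0.0833) with overlapping groups, so a fall was not called there, while ApcMyc minus Apc was -3.35 (adjusted p = 5.08e-05). Myc-deleted is used below for the labelled genotype. The sources used here do not say whether that probe set lies in the deleted part. The beta-catenin targets Glul and Axin2 rose with Apc loss by 2.41 and 2.77 with Myc intact and by 1.64 and 1.85 with Myc deleted. Array medians of the linear signal ran from 35.4 to 53.7 in WT and Apc, from 59.5 to 78.9 in Myc, and from 86.5 to 106.9 in ApcMyc livers. WT and Apc titles have 1 style and Myc and ApcMyc titles another, so loss of Myc and whatever the styles stand for cannot be told apart. Apc minus WT and ApcMyc minus Myc each lie within 1 style. Within a style, codes in the titles still differ between the groups: letters for WT and Apc, numbers for Myc and ApcMyc. What these codes stand for is not stated, so it cannot be told apart from genotype either.

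After loss of Apc, Srebf1, Elovl3 and Agpat2 fell while Mogat2, Hsd17b7 and Stard4 rose, with Myc intact and with Myc deleted. In Apc against WT livers, 4 of the 8 genes rose (Fads2, Mogat2, Hsd17b7, Stard4) and 3 fell (Srebf1, Elovl3, Agpat2), while Insig1 was not called. Of all probe sets tested 15.6% were called in that comparison (7.87% up and 7.68% down), and of the genes named in the authors' lists 45.7%. With Myc deleted as well, in ApcMyc against Myc livers, 3 genes rose (Mogat2, Hsd17b7, Stard4) and the same 3 fell, against 13.4% of all probe sets (6.64% up and 6.76% down) and 44.6% of the named genes called. The median size of the members' differences was 1.1 and 1.12 in these comparisons, against 0.294 and 0.288 over all probe sets. Genes picked from lists of differing probe sets show larger differences by construction. The same median over the named genes was not computed, so nothing is read from this gap. Under array median scaling the called probe sets of ApcMyc minus Myc split into 1759 up and 3511 down, against 2131 and 2171 with quantile normalization. No member difference that passed the test changed sign under any alternative.

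The count of 7 in Apc minus WT rests on the smaller differences. It was 4 (1 up, 3 down) without Apc replicate 2 and without WT replicate 3. The 4 that held in all alternatives were Srebf1, Elovl3, Agpat2 and Mogat2.

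**Figure D1:**
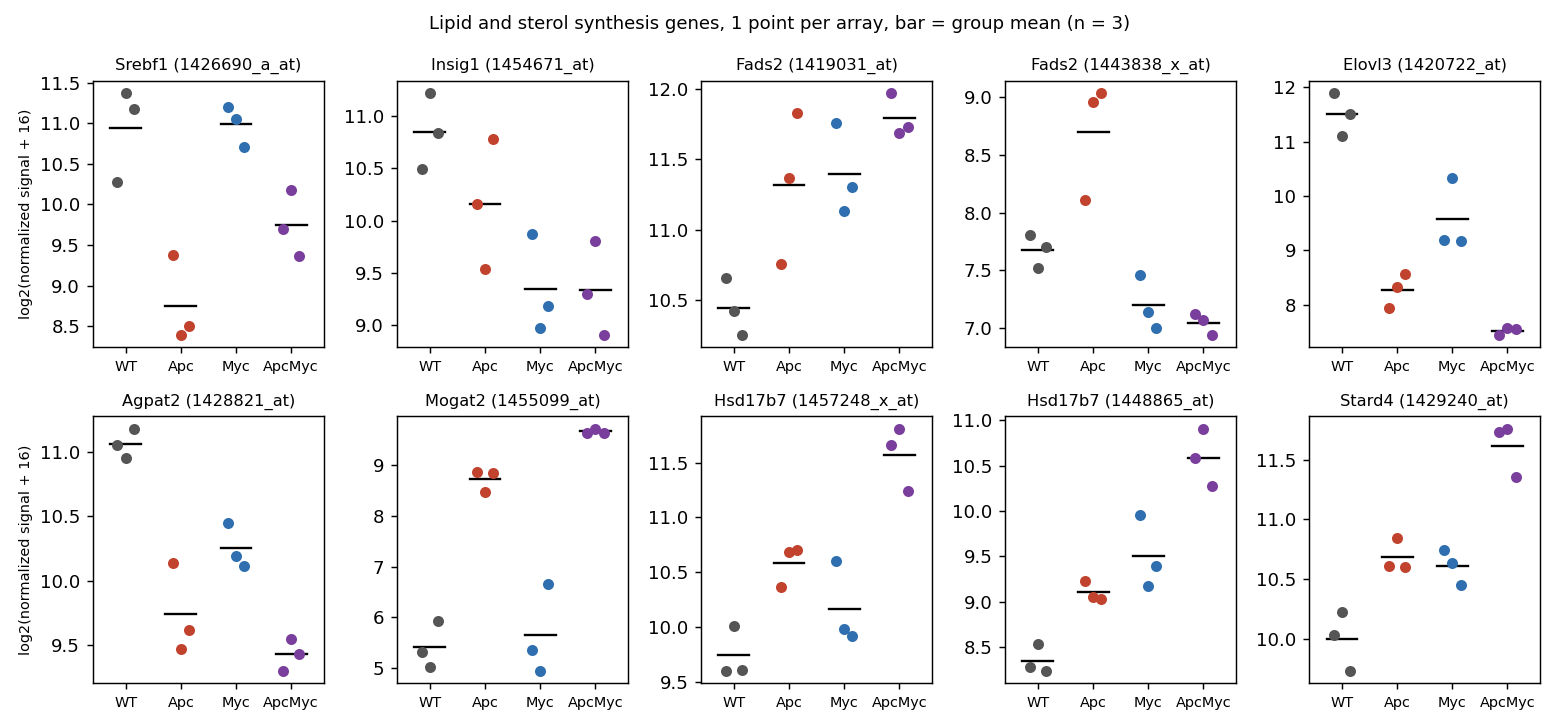
Level of each of the 10 probe sets as log2(normalized signal + 16), with 1 point per array, 3 arrays in each of the WT, Apc, Myc and ApcMyc groups, and a bar at the group mean; each panel has its own vertical range, which does not start at 0. Mogat2 sits near 5 to 7 in all WT and Myc arrays and above 8 in all Apc and ApcMyc arrays, while Elovl3 is highest in the 3 WT arrays.

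Srebf1 (probe set 1426690_a_at, whose suffix marks transcripts of 1 gene that it cannot separate) read 10.28, 11.37 and 11.17 in the WT arrays and 9.38, 8.39 and 8.50 in the Apc arrays. It read 11.20, 11.05 and 10.71 in the Myc arrays and 9.70, 10.18 and 9.37 in the ApcMyc arrays. All WT and Myc arrays lay above all Apc and ApcMyc arrays, WT overlapped Myc, and Apc overlapped ApcMyc. Loss of Apc lowered Srebf1 by a log2 difference of -2.18 (SE 0.327, 95% interval -2.89 to -1.47, adjusted p = 0.000782), which is 4.53-fold. With Myc deleted the difference was -1.23 (95% interval -1.94 to -0.52, adjusted p = 0.0261), or 2.35-fold. The difference between these responses was 0.95 (95% interval -0.06 to 1.95, adjusted p = 0.295), so a weaker fall with Myc deleted was not shown. ApcMyc stood above Apc by 0.99 (adjusted p = 0.0485), and Myc minus WT was 0.05 (adjusted p = 0.95). The ApcMyc minus Myc call was lost without ApcMyc replicate 1 (adjusted p = 0.077), ApcMyc replicate 3 (0.09), Myc replicate 1 (0.0892) or Myc replicate 2 (0.0788), over a range of 0.0073 to 0.09 in all alternatives. The ApcMyc minus Apc call was lost in 12 of 20 alternatives, up to an adjusted p of 0.169 without ApcMyc replicate 2.

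Insig1 (1454671_at), the brake on SREBP release, followed another order. Its arrays read 10.49, 11.22 and 10.84 in WT, 10.16, 9.54 and 10.78 in Apc, 9.87, 8.97 and 9.18 in Myc, and 9.30, 9.80 and 8.90 in ApcMyc. All 6 arrays with Myc deleted lay below all 3 WT arrays, and the Apc arrays overlapped the other 3 groups. Myc minus WT was -1.51 (SE 0.341, adjusted p = 0.0182, 2.84-fold). Apc minus WT was -0.69 (95% interval -1.43 to 0.05, adjusted p = 0.203) and ApcMyc minus Myc -0.01 (95% interval -0.75 to 0.73, adjusted p = 0.99). Without Myc replicate 2, Myc replicate 3, WT replicate 2 or WT replicate 3 the Myc minus WT call was lost, with adjusted p of 0.0762, 0.0656, 0.0706 and 0.0521 in a range of 0.00557 to 0.0762.

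Elovl3 (1420722_at), the elongase of saturated and monounsaturated very long chain fatty acids, was the member with the largest fall in Apc minus WT. It read 11.89, 11.11 and 11.51 in WT, 7.94, 8.32 and 8.56 in Apc, 9.20, 10.34 and 9.18 in Myc, and 7.44, 7.58 and 7.55 in ApcMyc livers. No 2 groups overlapped: WT was highest, then Myc, then Apc, then ApcMyc. The fall with Apc loss was -3.23 with Myc intact (SE 0.301, adjusted p = 2.29e-05, 9.39-fold) and -2.05 with Myc deleted (adjusted p = 0.000926, 4.14-fold). The responses differed by 1.18 (95% interval 0.26 to 2.11, unadjusted p under 0.05 but adjusted p = 0.159). Myc minus WT was -1.93 (adjusted p = 0.00292), and ApcMyc stood below Apc by -0.75 (adjusted p = 0.0966), a difference that was called without Myc replicate 2 (adjusted p = 0.0341, range 0.0341 to 0.239). The authors' deposited table lists Elovl3 as lower in Apc against WT with a q-value of 4.515%, and in ApcMyc against WT with the lowest q-value it gives.

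Fads2, the desaturase that starts the conversion of essential fatty acids into longer polyunsaturated ones, was read by 2 probe sets that did not agree. Probe set 1419031_at read 10.66, 10.42 and 10.25 in WT, 10.76, 11.37 and 11.83 in Apc, 11.76, 11.13 and 11.30 in Myc, and 11.97, 11.69 and 11.73 in ApcMyc livers. All WT arrays were below all others, and Apc overlapped both Myc and ApcMyc. Apc minus WT was 0.87 (SE 0.254, adjusted p = 0.0353, 1.83-fold), Myc minus WT 0.95 (adjusted p = 0.037) and ApcMyc minus Myc 0.40 (95% interval -0.15 to 0.95, adjusted p = 0.34). Probe set 1443838_x_at, of a class that can also detect other transcripts, read 7.81, 7.52 and 7.70 in WT, 8.11, 8.95 and 9.03 in Apc, 7.46, 7.14 and 7.0 in Myc, and 7.12, 7.07 and 6.94 in ApcMyc livers. Here Apc was highest, and every array with Myc deleted lay below every WT array. Its Apc minus WT difference was 1.02 (SE 0.23, adjusted p = 0.00975), and ApcMyc minus Apc was -1.65 (adjusted p = 0.000641), where 1419031_at gave 0.48 (adjusted p = 0.207). Both probe sets were higher in Apc than in WT livers, and they parted in the livers without Myc. With the mean of both, Myc minus WT was 0.238 (adjusted p = 0.575). For 1419031_at the Apc minus WT call was lost without Apc replicate 2 (adjusted p = 0.0959), Apc replicate 3 (0.122), WT replicate 2 (0.0886) or WT replicate 3 (0.112), and over all alternatives the adjusted p ran from 0.00617 to 0.149. Its Myc minus WT call was lost without Myc replicate 1 (0.134), Myc replicate 2 (0.0577), Myc replicate 3 (0.081), WT replicate 2 (0.0947) or WT replicate 3 (0.114), in a range of 0.0118 to 0.575.

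Agpat2 (1428821_at), which acylates lysophosphatidic acid to phosphatidic acid on the main route to triglycerides and phospholipids, read 11.05, 10.95 and 11.18 in WT and 10.14, 9.47 and 9.62 in Apc livers. It read 10.45, 10.19 and 10.11 in Myc and 9.30, 9.55 and 9.43 in ApcMyc livers. WT lay above the other 3 groups, Apc overlapped Myc and ApcMyc, and ApcMyc lay below Myc. Agpat2 fell with Apc loss by a log2 difference of -1.32 (SE 0.189, adjusted p = 0.000574, 2.49-fold) with Myc intact. With Myc deleted it fell by -0.82 (adjusted p = 0.0126, 1.77-fold), a call that was lost without ApcMyc replicate 1 (adjusted p = 0.0529) or Myc replicate 1 (0.0579), the highest of a range that starts at 0.00264. Myc minus WT was -0.81 (adjusted p = 0.0209), and was not called without Myc replicate 2 (0.0744), Myc replicate 3 (0.0786) or WT replicate 3 (0.0719), in a range of 0.00491 to 0.0786.

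Mogat2 (1455099_at), which makes diacylglycerol from monoacylglycerol and is best known from fat absorption in the intestine, was low in livers with intact Apc and rose most of the 8 genes. It read 5.31, 5.01 and 5.92 in WT and 5.36, 4.94 and 6.65 in Myc livers. It read 8.88, 8.47 and 8.86 in Apc and 9.65, 9.73 and 9.64 in ApcMyc livers, each above all arrays with intact Apc. Before the log, the mean normalized signal was 28.1 in WT, 41.4 in Myc, 414 in Apc and 801 in ApcMyc. Apc minus WT was 3.32 (SE 0.359, adjusted p = 7.45e-05, 10-fold), and ApcMyc minus Myc was 4.02 (adjusted p = 3.02e-05, 16.2-fold). These folds are on the log2(signal + 16) scale and understate a change from signals this low. The responses differed by 0.70 (95% interval -0.4 to 1.8, adjusted p = 0.494). ApcMyc lay above Apc in all arrays, by 0.94 (adjusted p = 0.0829), and this was called without Myc replicate 3 (adjusted p = 0.0167) in a range of 0.00678 to 0.254. Of the 10 intestinal cell markers listed, 1, Apob, is named in the authors' lists and could be counted. Its signal was 8641 to 9906 in WT, 9605 to 10380 in Apc, 7430 to 8874 in Myc and 1885 to 2647 in ApcMyc arrays. Hepatocytes make Apob too, and the part of intestinal cells in the Mogat2 values was not tested.

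**Figure D2:**
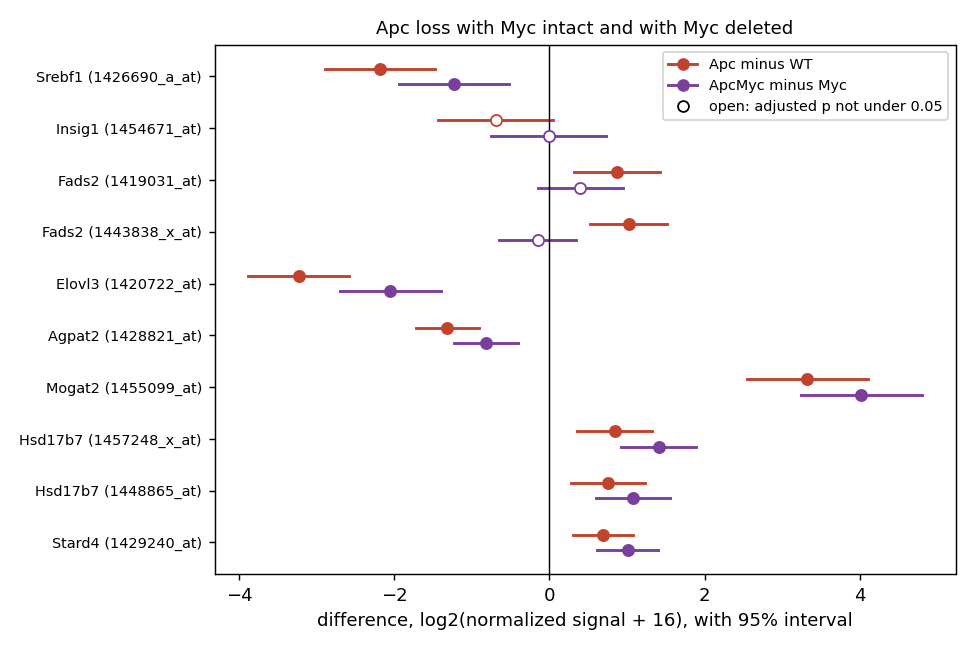
Effect of Apc loss on the 10 probe sets, as differences of log2(normalized signal + 16) with 95% intervals, in Apc minus WT (red) and ApcMyc minus Myc (purple), with open symbols where the adjusted p was not under 0.05. Srebf1, Elovl3 and Agpat2 lie below 0 and Mogat2, Hsd17b7 and Stard4 above 0 in both, with intervals that overlap for every probe set but Fads2 1443838_x_at (1.02 and -0.15).

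Hsd17b7, a reductase of the late steps of cholesterol synthesis, was read by 2 probe sets that moved the same way with Apc loss. The brighter, 1457248_x_at, stands for the gene in the counts and is also of the class that can detect other transcripts. It read 9.60, 10.01 and 9.61 in WT, 10.36, 10.68 and 10.70 in Apc, 10.60, 9.98 and 9.92 in Myc, and 11.66, 11.81 and 11.24 in ApcMyc livers. ApcMyc lay above all other arrays and Apc above WT, while Myc overlapped both WT and Apc. Apc minus WT was 0.84 (SE 0.223, adjusted p = 0.0231, 1.79-fold) and ApcMyc minus Myc 1.41 (adjusted p = 0.00155, 2.65-fold). Probe set 1448865_at read 8.28, 8.53 and 8.24 in WT, 9.23, 9.05 and 9.03 in Apc, 9.96, 9.17 and 9.40 in Myc, and 10.58, 10.91 and 10.28 in ApcMyc livers. Its differences were 0.76 (adjusted p = 0.035) and 1.08 (adjusted p = 0.00672). The probe sets differed in Myc minus WT, where 1457248_x_at gave 0.42 (adjusted p = 0.262) and 1448865_at 1.16 (adjusted p = 0.00774). The Apc minus WT call of 1457248_x_at was lost without Apc replicate 2 (adjusted p = 0.0764), Apc replicate 3 (0.0681), WT replicate 1 (0.0692) or WT replicate 3 (0.0771), in a range of 0.00666 to 0.0771. That of 1448865_at was lost without any 1 of the 3 Apc or 3 WT arrays, at adjusted p of 0.0505 to 0.103.

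Stard4 (1429240_at), the sterol carrier, read 10.03, 10.22 and 9.73 in WT, 10.61, 10.84 and 10.60 in Apc, 10.74, 10.63 and 10.45 in Myc, and 11.73, 11.76 and 11.35 in ApcMyc livers. WT was lowest and ApcMyc highest without overlap, and the single deletions overlapped each other between them. Apc minus WT was 0.69 (SE 0.179, adjusted p = 0.0203, 1.61-fold) and ApcMyc minus Myc 1.01 (adjusted p = 0.00303, 2.01-fold). Myc minus WT was 0.61 (adjusted p = 0.0507), past the threshold without ApcMyc replicate 3 (0.0415) and in 4 other settings, in a range of 0.0144 to 0.169. The Apc minus WT call was lost without Apc replicate 2 (0.0807) or WT replicate 3 (0.0843), in a range of 0.00408 to 0.0864. Under array median scaling ApcMyc minus Myc was 0.59 (adjusted p = 0.0789).

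With Myc deleted, Elovl3, Insig1 and Agpat2 were lower than in WT livers, and Hsd17b7 and Stard4 were higher in ApcMyc than in Apc livers. By the brightest probe set of each gene, in Myc against WT livers 1 gene rose (Fads2) and 3 fell (Insig1, Elovl3, Agpat2), where 9.11% of all probe sets (4.05% up and 5.05% down) and 28.4% of the named genes were called. That count was 1 without Myc replicate 2, Myc replicate 3 or WT replicate 3 and 2 without WT replicate 2. Elovl3 was the 1 call that held in every alternative. Under array median scaling the split was 2 up and 3 down, and over all probe sets 2251 up and 1523 down, against 1302 and 1623 with quantile normalization. In livers without Apc, deleting Myc as well raised 3 genes (Srebf1, Hsd17b7, Stard4) and lowered none by the brightest probe set, where 20.9% of all probe sets (10.5% up and 10.4% down) and 44.8% of the named genes were called. Hsd17b7 rose by 0.99 (adjusted p = 0.00866) and Stard4 by 0.93 (adjusted p = 0.00365), and both held in every alternative. The second Fads2 probe set, 1443838_x_at, fell (-1.65, adjusted p = 0.000641), and that call held in 19 of 19 alternatives. These effects are not shown to depend on Apc, since none of these genes passed the test of the difference, though Fads2 1443838_x_at (-1.18, adjusted p = 0.0784) did in 5 of 18 alternatives, in a range of 0.0192 to 0.166. Hsd17b7 1448865_at also rose where Apc was intact (1.16, adjusted p = 0.00774), Stard4 stood at 0.61 there (adjusted p = 0.0507), and Elovl3 stood at -0.75 where Apc was lost (adjusted p = 0.0966). Whether these follow from Myc or from what the title styles stand for cannot be told apart.

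**Figure D3:**
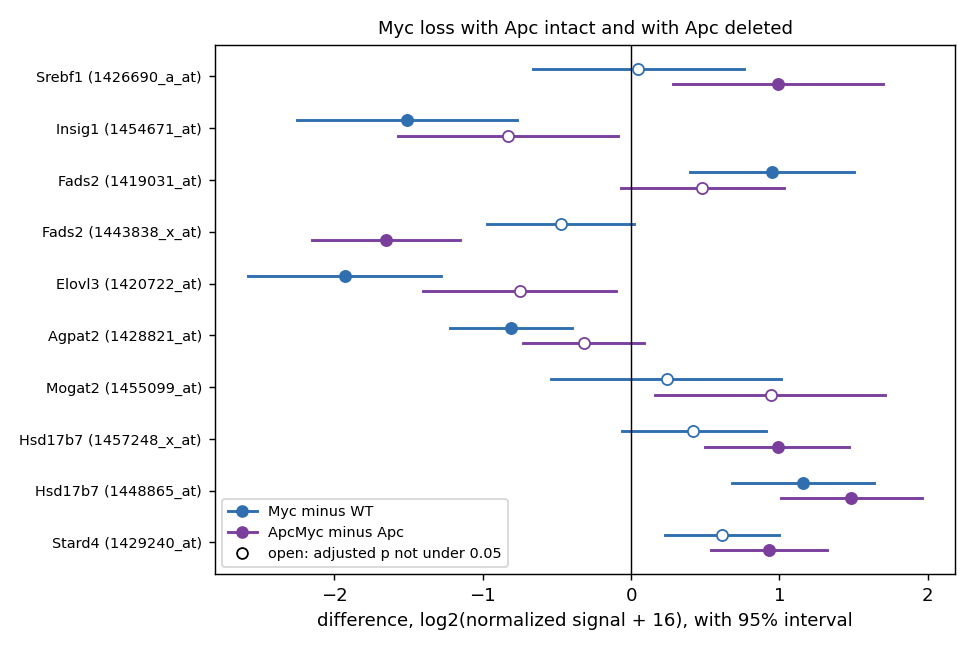
Effect of Myc deletion on the 10 probe sets, as differences of log2(normalized signal + 16) with 95% intervals, in Myc minus WT (blue) and ApcMyc minus Apc (purple), with open symbols where the adjusted p was not under 0.05. Both Hsd17b7 probe sets and Stard4 lie right of 0 in ApcMyc minus Apc, and Insig1, Elovl3 and Agpat2 lie left of 0 in Myc minus WT.

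In livers with both deletions all 8 genes differed from WT by their brightest probe set, 4 up and 4 down, where 24.8% of all probe sets (12.2% up and 12.6% down) and 84.7% of the named genes were called. Since 9 of the 10 probe sets come from the authors' list of that comparison, nothing is read from this count. The differences were -3.98 for Elovl3, -1.63 for Agpat2, -1.52 for Insig1 and -1.19 for Srebf1. They were 4.26 for Mogat2, 1.83 for Hsd17b7 (1457248_x_at), 1.62 for Stard4 and 1.35 for Fads2 (1419031_at). The other Fads2 probe set, 1443838_x_at, stood at -0.63 (95% interval -1.13 to -0.13, adjusted p = 0.0641), and with the mean of both Fads2 was at 0.361 (adjusted p = 0.296), which left 7 genes called, 3 up and 4 down. The Srebf1 call was lost without ApcMyc replicate 1 (adjusted p = 0.0552), ApcMyc replicate 3 (0.0746), WT replicate 2 (0.0766) or WT replicate 3 (0.0658), in a range of 0.0057 to 0.0766. In the authors' deposited table Srebf1 and Insig1 stood at q-values of 4.885%, close to that list's highest of 5.041%.

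The test of whether Myc status altered the response to Apc loss called none of the 8 genes, against 2.32% of all probe sets and 5.93% of the named genes. By limma, 1 gene (Elovl3) and 2 of the 10 probe sets (with Fads2 1443838_x_at) had an unadjusted p under 0.05. For Fads2 1443838_x_at the difference of responses was -1.18 (95% interval -1.88 to -0.47, adjusted p = 0.0784), called without Apc replicate 1 (adjusted p = 0.0192) in a range of 0.0192 to 0.166. The intervals of the others reach 1.95 for Srebf1, 1.8 for Mogat2, 1.72 for Insig1, 1.25 for Hsd17b7 and 1.07 for Agpat2. The limits that these 12 arrays set on such differences are therefore wide.

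Of 158 other genes listed for lipid synthesis, transport and storage, 29 were named in the authors' lists and so could be counted. In Apc minus WT 10 rose and 4 fell, and in ApcMyc minus Myc 11 rose and 6 fell, a split that was 8 and 8 under array median scaling and 9 and 3 with the deposited scores. The ApcMyc minus Myc count of 17 was 10 without Myc replicate 1, and 11 without ApcMyc replicate 2 or Myc replicate 2. Among all named genes 45.7% and 44.6% were called in these comparisons. Measured, in the lists below, means named there, so their counts and medians rest partly on that selection. No median and no share up or down was computed over the named genes, so a direction of a list cannot be told from it.

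Among regulators, 5 of 26 were measured, and 1 rose and 3 fell in each comparison (median differences -1.05 and -0.80, against -0.0212 and -0.0164 over all probe sets). Ppargc1b, a coactivator of SREBP1, fell by a log2 difference of -2.38 (adjusted p = 7.74e-05) and -1.80 (adjusted p = 0.000803). Insig2, the other INSIG, fell by -1.05 (adjusted p = 0.00872) and -0.80 (adjusted p = 0.0377). Thrsp, a gene of fat synthesis, fell by -2.95 in Apc minus WT and stood at -0.06 in ApcMyc minus Myc. Sik1, a kinase that restrains SREBP1, rose by 0.52 (adjusted p = 0.0366) and 0.60 (adjusted p = 0.0217), but its mean normalized signal was 7.64, below the 16 added before the log, so the size of its change is poorly known. Usf1, a transcription factor of fat synthesis genes, was at the threshold in ApcMyc minus Myc (-1.02, adjusted p = 0.05) and kept its call in 7 of 19 alternatives. Without single arrays Insig2 reached an adjusted p of 0.14 (ApcMyc replicate 1), 0.138 (Myc replicate 3), 0.0857 (Myc replicate 1), 0.0669 (ApcMyc replicate 3) and 0.0553 (Myc replicate 2) in ApcMyc minus Myc. Sik1 kept its calls in 7 of 19 alternatives in Apc minus WT and 13 of 18 in ApcMyc minus Myc.

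Fatty acid synthesis, elongation and desaturation had 8 of 28 genes measured, and 5 rose and none fell in each comparison, with medians of 1.43 and 0.74. Elovl7, another elongase, rose by 3.07 (adjusted p = 0.000198) and 3.28 (adjusted p = 0.000186), opposite to Elovl3. Of the 3 dehydratases of the elongation cycle that were measured, 2 rose in both comparisons: Hacd2 by 2.2 (adjusted p = 6.3e-06) and 2.01 (adjusted p = 2.48e-05), and Hacd3 by 1.54 (adjusted p = 3.59e-05) and 1.63 (adjusted p = 4.22e-05). The other, Hacd1, named after its values were seen, stood at 0.50 (adjusted p = 0.12) and 0.68 (adjusted p = 0.0434), and the latter call was lost in 11 of 19 alternatives, up to an adjusted p of 0.254. Acsl4, which activates polyunsaturated fatty acids, rose by 2.28 (adjusted p = 3.76e-05) and 0.79 (adjusted p = 0.0367). The latter call was lost without ApcMyc replicate 1 (0.142), ApcMyc replicate 2 (0.107), Myc replicate 1 (0.0515), Myc replicate 2 (0.0804) or Myc replicate 3 (0.139), in a range of 0.00679 to 0.142.

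Glycerolipid and phospholipid synthesis had 6 of 38 genes measured, with 3 up and none down in Apc minus WT and 3 up and 1 down in ApcMyc minus Myc. Pgs1 and Crls1, which act in cardiolipin synthesis, rose by 1.46 and 1.27 (adjusted p = 0.00056 and 0.000248) and by 1.11 and 0.98 (adjusted p = 0.00433 and 0.00204). Chka, the choline kinase, rose by 2.09 (adjusted p = 0.000754) and 1.24 (adjusted p = 0.0206), the latter not called without ApcMyc replicate 2 (0.0646), ApcMyc replicate 3 (0.0551), Myc replicate 1 (0.0629) or Myc replicate 3 (0.0663), in a range of 0.000948 to 0.0687. Etnk1, an ethanolamine kinase, stood at -0.15 in Apc minus WT and fell by -1.52 (adjusted p = 0.000926) in ApcMyc minus Myc.

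Of 5 measured genes of sterol uptake, transport and storage (23 listed), 1 rose in both comparisons, Lipa, the lysosomal lipase, by 0.84 (adjusted p = 0.00976) and 1.02 (adjusted p = 0.00392, and 0.108 under array median scaling, in a range of 0.000365 to 0.108). Of 4 measured droplet and triglyceride breakdown genes (22 listed), none passed the test upward. Cidec, a droplet protein named after its values were seen, stood at 2.51 in Apc minus WT (SE 0.834, adjusted p = 0.0607), and was called in 5 of 20 alternatives. It was at 3.83 without Apc replicate 1 (adjusted p = 0.000252) and was not called without Apc replicate 3, in a range of 0.000252 to 0.194. Hsd17b13, a lipid droplet protein of hepatocytes, fell by -1.97 (adjusted p = 0.0117) and -1.82 (adjusted p = 0.0205). The latter call was lost without ApcMyc replicate 2 (0.0822), Myc replicate 1 (0.0591), Myc replicate 2 (0.0649) or Myc replicate 3 (0.0528), in a range of 0.00166 to 0.0822. Apob, the protein of very low density lipoprotein, stood at 0.08 in Apc minus WT and fell by -1.93 (adjusted p = 2.42e-05) in ApcMyc minus Myc.

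**Figure D4:**
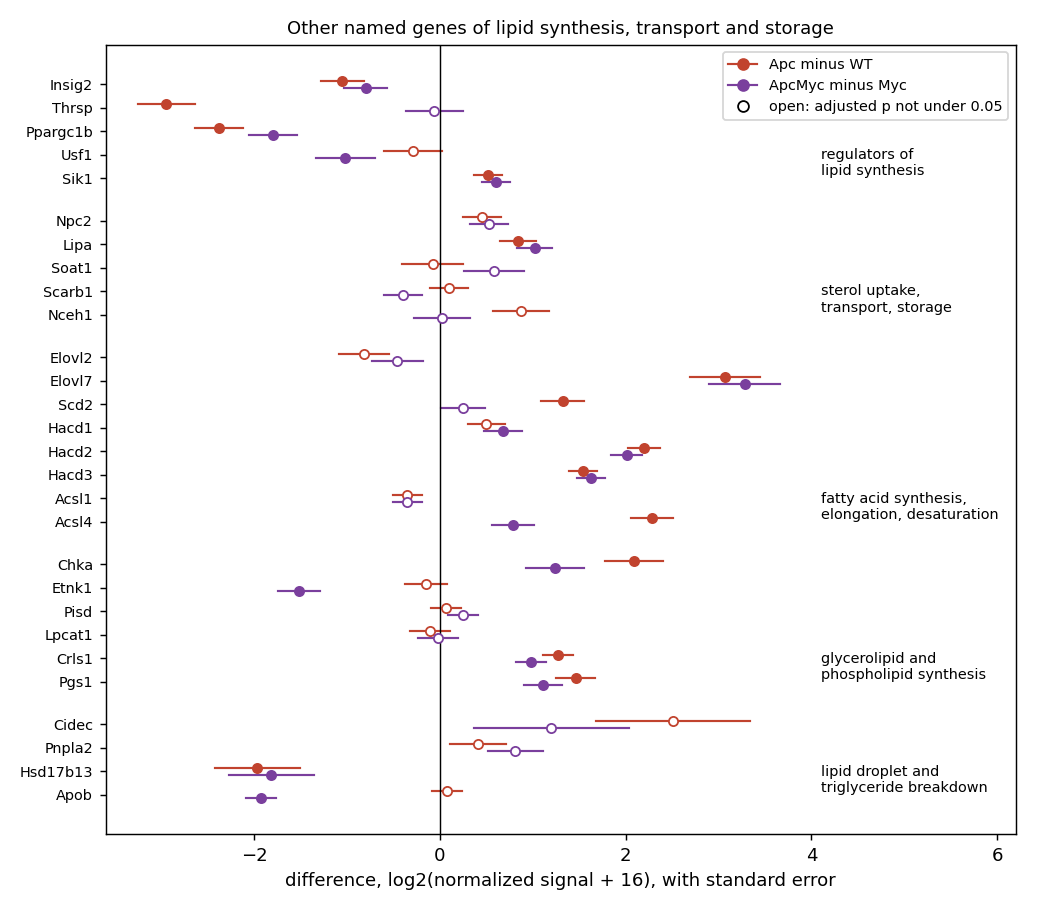
Differences of log2(normalized signal + 16) with standard errors for measured genes of 5 of the lipid lists, in Apc minus WT (red) and ApcMyc minus Myc (purple), grouped by list, with open symbols where the adjusted p was not under 0.05. Elovl7, Hacd2 and Hacd3 lie right of 0 in both, Ppargc1b and Hsd17b13 left of 0 in both, and Thrsp at -2.95 and -0.06.

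These are whole liver samples, in which fewer cells of a type and less RNA per cell cannot be told apart. A marker was counted only if the authors' lists name it. The sums are thus of genes already picked for differing between these groups, and they do not measure cell shares. The 2 of 14 hepatocyte markers counted, Apoa1 and Serpina1a, summed to a normalized signal of 26190 to 27080 in WT and 20660 to 22410 in Apc arrays. The sum was 22080 to 22520 in Myc and 13090 to 16540 in ApcMyc arrays. By group mean, Agpat2 and Elovl3 were also highest in WT and lowest in ApcMyc. Mogat2, Hsd17b7, Stard4 and Fads2 (1419031_at) had the opposite order, lowest in WT and highest in ApcMyc. Insig1 was highest in WT but level in Myc (9.34) and ApcMyc (9.33). In Apc minus WT, Apoa1 stood at 0.0 and was not called, while Serpina1a fell by -0.94 (adjusted p = 0.00475). Both fell in ApcMyc minus WT (-0.52 and -1.43, adjusted p = 0.0158 and 0.000203). The 5 of 16 macrophage markers summed to 578.7 to 1489 in WT and 617.7 to 942.9 in Apc arrays, and to 1909 to 2552 in Myc and 2027 to 2752 in ApcMyc arrays. Lyz2 had the highest mean normalized signal of these 5 (899.4), so it weighs most in the sum. In Myc minus WT 3 of the 5 were called up and 2 were not called, where 9.11% of all probe sets and 28.4% of the named genes were called. The 4 of 13 endothelial markers were at 985.2 to 1124 in ApcMyc and at 253.5 to 620.9 in the other arrays, and the 2 of 13 lymphocyte markers at 137.9 to 274.1 with Myc deleted and at 52.22 to 119.1 otherwise. The 2 of 9 adipocyte markers measured, Fabp4 and Car3, summed to 11110 to 11410 in WT and to 4966 to 8180 in the other arrays. Nearly all of that sum is Car3, which hepatocytes also make and which fell against WT in Apc (-0.94, adjusted p = 0.00667), Myc (-0.74, adjusted p = 0.0366) and ApcMyc livers (-0.60, adjusted p = 0.0421). Fabp4, with a mean normalized signal of 10.4, rose in ApcMyc minus WT (1.0, adjusted p = 0.00875), ApcMyc minus Myc (0.88, adjusted p = 0.0285) and ApcMyc minus Apc (0.86, adjusted p = 0.0237). Of the 5 of 11 red cell markers, 1 rose and 3 fell in Apc minus WT, and 1 rose and 4 fell in ApcMyc minus Myc. The share of all probe sets called was 15.6% and 13.4%. The marker that rose was Car2 in both (3.61 and 3.24, adjusted p = 5.86e-06 and 2.48e-05). The 1 of 12 stellate markers, Pdgfrb, was at 133.2 to 196 in WT and at 35.61 to 100.6 in the other arrays, and the 1 of 9 bile duct markers, Tspan8, was no higher than 15.1 in any array. The part of these cell types in the members' differences was not tested.

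Among 2168 other named genes, those closest to each member over the 12 arrays were found by the mean absolute difference of log2 levels after each gene was centred on its own mean. Agpat2 had the closest match, F10, the gene of coagulation factor X, at 0.105, against a median of 0.803 over all genes compared. Stard4 was nearest to Hmgn1 (0.142) and Chd1 (0.142), both genes of chromatin proteins, with a median of 0.637. Hsd17b7 was nearest to Rdh16 (0.188), a retinol dehydrogenase, and Gna13 (0.193), and Fads2 to Dnajb2 (0.179) and Ssrp1 (0.179). Srebf1 was nearest to Pecr (0.217), a peroxisomal reductase of fatty acid elongation, and Saa4 (0.225), and Insig1 to Pdia4 (0.273) and Yme1l1 (0.285). Elovl3 and Mogat2, which varied most, had looser matches in Uroc1 (0.395) and Lhpp (0.455), against medians of 1.505 and 1.764. These values describe likeness over 12 arrays that share 4 genotypes, and a gene that varies little lies closer to others by construction.

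**Figure D5:**
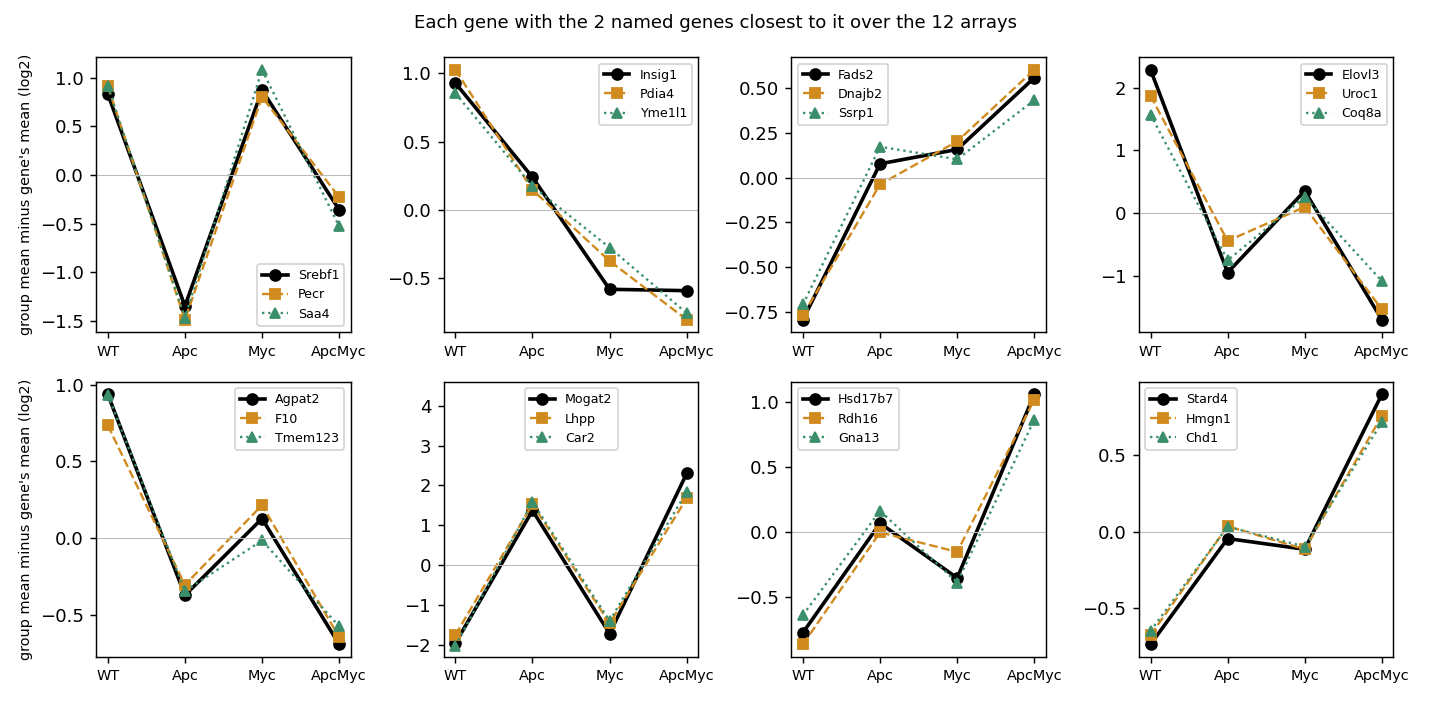
Group means of log2(normalized signal + 16) minus the gene's own mean for each member (black circles) and the 2 named genes closest to it over 12 arrays (squares and triangles), across WT, Apc, Myc and ApcMyc; lines join groups for reading only. Srebf1, Pecr and Saa4 are low in Apc and partly so in ApcMyc, while Hsd17b7 and Stard4 and their nearest genes are highest in ApcMyc.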

How the data were processed

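Total RNA of mouse liver was measured on 1 Affymetrix-type array per sample; neither the array type nor the scanner software is named in the labels. What the authors deposited is a score per probe set. By its values it is a log signal, nearly centred and nearly scaled to the array's spread. Score means ran from -0.0249 to -0.005 and SDs from 1.007 to 1.0514, and the exact steps are inferred. The deposited SAM lists hold, per the file headers, a SAM score and a q-value in percent. Linear signals were recovered from the scores, since low signals step on a grid of 0.1 with a floor of 1 (20 iterations; below 1000, 100% of recovered signals fell on that grid to within 0.01). Signals were quantile normalized over 32176 probe sets and analysed as log2(signal + 16), without a test of the 61 control probe sets. One limma fit (limma 3.58.1, R 4.3.3) with 4 group means on 12 arrays gave 5 pairwise comparisons and the difference of the responses to Apc loss, two-sided, with Benjamini-Hochberg adjustment over 32115 probe sets. It was tested on simulated data. With 3 arrays a group, their number limits precision.

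Symbols came from the authors' lists of 2975 probe sets, updated through RefSeq names for 376, and the brightest probe set stands for a gene. All members with all their probe sets are named, and up to 4 called genes with the smallest p per lipid list and comparison. Members and lists were chosen with earlier results of these data known. WT and Apc titles share replicate numbers; the residual correlations of same-numbered arrays were 0.0627, 0.00557 and -0.0122, so the numbers were not taken as pairs. Alternatives were array median scaling, the scores as deposited, pseudocounts of 1 and 64, a variance trend, only the compared groups, no low probe sets, averaged probe sets per gene, each array left out, and a replicate block. Gene by gene, lipid list genes and second probe sets were put through them after seeing the data. One list of sterol synthesis genes enters the total counts of the lipid lists and is not reported here by itself.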

Additional observations from a re-analysis of the deposited data

Results flagged for a closer look

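The response to Apc loss with Myc deleted was compared with that with Myc intact for the 8 members and the 29 measured lipid list genes. This test of the difference passed for 4 of the 29 and 0 of the 8, against 2.32% of all probe sets and 5.93% of the named genes. With shares this small, no contrast between the members and the list genes is read from these counts. Thrsp, a gene of fat synthesis, had a difference of responses of 2.89 on the log2 scale (adjusted p = 0.0116), from -2.95 with Myc intact and -0.06 with Myc deleted. Apob, the lipoprotein gene, had -2.01 (adjusted p = 0.00439), from 0.08 and -1.93. Acsl4, which activates polyunsaturated fatty acids, had -1.49 (adjusted p = 0.0343), from 2.28 and 0.79. Etnk1, an ethanolamine kinase, had -1.37 (adjusted p = 0.0445), from -0.15 and -1.52. All were tested with limma over all probe sets. The call held for Thrsp in all 18 alternatives, for Apob in 17 of 18 (not with the deposited scores, adjusted p = 0.0799), for Acsl4 in 7 of 18 and for Etnk1 in 4 of 18. Without single arrays Acsl4 lost its call for Apc replicates 1 and 2 (adjusted p = 0.0544 and 0.0771), ApcMyc replicate 2 (0.066), Myc replicates 1, 2 and 3 (0.0868, 0.0809 and 0.0541) and WT replicates 1, 2 and 3 (0.0601, 0.0602 and 0.0673), in a range of 0.00953 to 0.0868 over all alternatives. Etnk1 lost its call when any 1 of the 12 arrays was left out, at adjusted p of 0.0527 to 0.105.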

How the results depend on the processing

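Of 960 values of the 8 members under 21 alternatives, 890 kept their side of the threshold, 58 lost the call, 12 gained it and 0 reversed. Of 3510 values of the lipid list genes and the second probe sets, these numbers were 3293, 138, 79 and 0. Reversed means a change of sign in a value called in the main fit or in the alternative. Values called in neither were counted as kept even where the sign changed, as for Insig1 in ApcMyc minus Myc (-0.243 to 0.254). Over all probe sets, Apc minus WT called 4996, against 3151 with only the groups of the comparison in the fit, and the interaction called 744 (386 up, 358 down), against 1207 with array median scaling (402 up, 805 down), 194 with a pseudocount of 1, 1586 with a pseudocount of 64, 162 with the deposited scores, 1309 with an intensity trend and 1397 without low probe sets. The lipid list genes called for the interaction, 4, became 2 with a pseudocount of 1 and 1 with the deposited scores. With 1 array left out in turn, calls over all probe sets ran from 2539 to 4932 in ApcMyc minus Myc, from 1249 to 3457 in Myc minus WT and from 159 to 929 for the interaction. Member genes called ran from 4 to 7 in Apc minus WT and from 1 to 5 in Myc minus WT, and lipid list genes called from 10 to 17 in ApcMyc minus Myc and from 2 to 4 for the interaction. A group left with 2 arrays is assumed to vary like the other groups. With the replicate number as a block and only WT and Apc arrays, Apc minus WT called 2161 probe sets and 4 members (1 up, 3 down): Fads2, Hsd17b7 and Stard4 lost their calls (adjusted p = 0.149, 0.0587 and 0.0864). The titles do not say that these numbers pair animals. Fits of fewer arrays have less power by construction, and the cause of the other changes was not tested. No other comparison could be blocked, since Myc and ApcMyc titles carry no shared numbers. The low signal of Mogat2 in WT and Myc livers limits how well its fold is known.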
